A study of Musculus with 2 samples.

Results

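Complement genes were followed through the cells of mouse subcutaneous fat to see which cell types carry their transcripts. They were 9 of the 32285 genes listed in the deposited matrices: C1qa, C1qb, C1qc, C4b, C3, Cfb, C3ar1, C5ar1 and Serping1. The genes were given by name, and all 9 were matched by symbol and had UMIs (counted transcript molecules) in both libraries. Another 44 complement genes were followed as a list. The study took subcutaneous white adipose tissue (sWAT) and sequenced its stromal vascular fraction, the cells that remain when floating mature adipocytes are removed after collagenase digestion, on the 10x Genomics platform. A library titled Control came from mice of genotype WT and a library titled LPCAT3-AKO from mice with an LPCAT3 knockout. LPCAT3 is an enzyme that remodels the fatty acids of membrane phospholipids. The labels give mice of 5 weeks, whereas the series text speaks of wild-type and LPCAT3-AKO mice of 2 months on CD feed, so the age is unsettled. The sources used here do not give the sex, the number of mice per library or the driver of the knockout, and the fraction lacks the mature adipocytes that the name of the knockout points to.

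Complement is a cascade of plasma and tissue proteins that tags microbes, dying cells and debris. C1q, built from the A, B and C chains that C1qa, C1qb and C1qc encode, recognises the target and, with the proteases C1r and C1s, starts the classical pathway by cleaving C4 and C2. C3 is the protein on which all pathways converge. Factor B, the product of Cfb, joins cleaved C3 to form the convertase of the alternative pathway, which amplifies the reaction. The released fragments C3a and C5a act on the receptors C3ar1 and C5ar1, and the C1 inhibitor encoded by Serping1 blocks C1r and C1s. In adipose tissue the cascade is best known for adipsin (Cfd), a product of mature fat cells, and for the resident macrophages that make C1q.

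The control library held 13831 barcodes and 111669076 UMIs, and the LPCAT3-AKO library 12806 barcodes and 119355147 UMIs. After filtering and removal of likely doublets, 11191 control and 10576 LPCAT3-AKO cells were kept, with medians of 8078 and 8599.5 UMIs. Of the kept cells, 36 barcodes occurred in both libraries, or 0.322% of the control cells. Cells were clustered without any complement gene and named by markers, so that names carry the ending "-like", which is left out below for states already introduced. Adipose stem and progenitor cells (ASPC-like, the fibroblasts of this tissue; 5586 control and 5714 LPCAT3-AKO cells) and macrophage/monocyte-like cells (4337 and 3391) made up most of the fraction. Their own 10 markers summed to 37335 and 42227 CPM in ASPC-like cells and to 13362 and 13055 in macrophage/monocyte-like cells. Vascular endothelial-like cells numbered 221 and 260, epithelial-like cells 108 and 251, and dendritic cell-like cells 474 and 408. Levels are UMIs of a gene for each 1000000 UMIs of the summed cells (CPM), and brackets hold 95% counting intervals. Paired values are always control first and LPCAT3-AKO after it. UMI counts depend on how well each transcript is captured, so levels are compared between cells and not between genes. With 1 library per group there were no replicates, no test between the genotypes was possible, and the spread between animals is unknown. Droplets also take up free RNA from broken cells, so low levels are set beside the markers of the class where the gene was highest.

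The complement genes fell into 3 sets by the cells that held their UMIs. The 3 chains of C1q and both receptors came from macrophage/monocyte-like cells, C3 and Serping1 came from ASPC-like cells, and C4b and Cfb came from both. Macrophage/monocyte-like cells held 96.2% (96.1 to 96.3) of the C1qa UMIs of the control library and 95.3% (95.1 to 95.4) of those of the LPCAT3-AKO library. ASPC-like cells held 97.8% (97.7 to 97.9) and 97.1% (97.0 to 97.2) of the C3 UMIs, and 98.1% and 97.2% of the Serping1 UMIs. Of the C4b UMIs, 57.9% and 57.7% came from ASPC-like and 40.6% and 40.1% from macrophage/monocyte-like cells. For Cfb the division was 54.8% and 51.4% against 43.3% and 45.8%. By CPM, over the 7 classes that reached 100 cells in each library, 7 of the 9 genes were highest in macrophage/monocyte-like and 2, C3 and Serping1, in ASPC-like cells, in both libraries and under each of the 9 processing alternatives that filter, regroup or reweight the cells. Vascular endothelial-like, epithelial-like and dendritic cell-like cells each held less than 1% of the UMIs of each of the 9 genes.

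**Figure D1:**
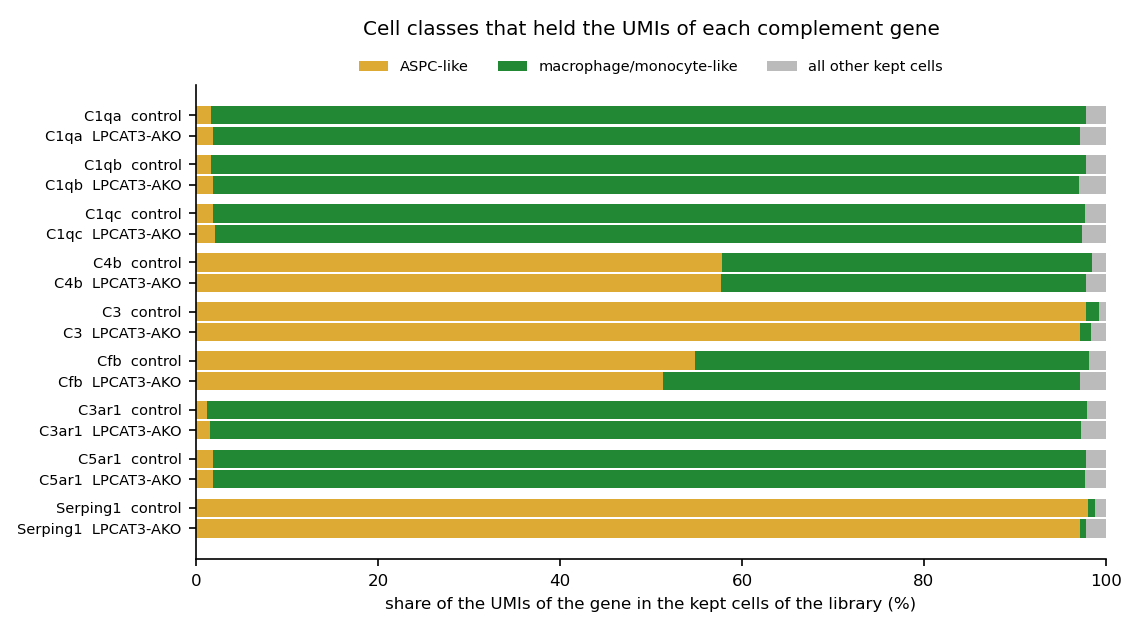
Share of each gene's UMIs (horizontal axis, percent of the gene's UMIs in the kept cells of a library) held by ASPC-like cells, macrophage/monocyte-like cells and all other kept cells, one bar per gene and library. The bars of C3 and Serping1 are almost wholly ASPC-like, those of C1qa, C1qb, C1qc, C3ar1 and C5ar1 almost wholly macrophage/monocyte-like, and those of C4b and Cfb are divided.

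C1qa (ENSMUSG00000036887) stood at 3911 CPM (3889 to 3934) and 3891 CPM (3868 to 3913) in macrophage/monocyte-like cells. C1qb (ENSMUSG00000036905) stood at 2990.4 and 2827 CPM there, and C1qc (ENSMUSG00000036896) at 2290.2 and 2278 CPM. Within this class the level followed the state. Lyve1 Folr2 resident-like macrophages, which carry the markers of long-lived tissue macrophages such as Timd4 and Cd163 (3162 control and 2298 LPCAT3-AKO cells), had C1qa at 5080.4 and 5499 CPM, C1qb at 3726 and 3685 CPM, and C1qc at 2978 and 3202 CPM. The interferon-high-like macrophages of the control library (228 cells, against 11 in the LPCAT3-AKO library, too few for a level) had C1qa at 4588 CPM. Lyz1 Retnla-like macrophages (710 and 557 cells) had C1qa at 904 and 781 CPM, and monocyte-like cells, marked by Ly6c2 and Ccr2 (83 and 213 cells), at 276 and 574 CPM. The order resident-like, Lyz1 Retnla-like, monocyte-like held for each chain in both libraries, with counting intervals that did not overlap.

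Cell by cell, the chains were present together in the resident-like state. When each cell was thinned to 2000 UMIs, with shallower cells left out, 98.1% of 2942 control and 97.1% of 2175 LPCAT3-AKO resident-like macrophages had UMIs of all 3 chains. The median such cell had 10 UMIs of C1qa and 6 of C1qb in either library. Among Lyz1 Retnla-like macrophages, 30.8% of 604 and 27.2% of 485 cells had all 3 chains, and the highest 10% of these cells held 50.4% and 50.6% of the C1qa UMIs. Among monocyte-like cells the share was 13.4% of 82 and 18.3% of 208. The lower levels of these states went with fewer cells that had the chains at this depth and with an uneven spread among cells.

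The chains were not in 1 proportion throughout the class. Resident-like macrophages had 0.73 and 0.67 UMIs of C1qb per UMI of C1qa. Lyz1 Retnla-like macrophages had 1.31 (1.27 to 1.36) and 1.44, and monocyte-like cells 1.54 (1.22 to 1.94) and 1.56 (1.42 to 1.71). Dividing-like macrophages (154 and 312 cells) lay between, with C1qa at 1093 and 2084 CPM and C1qb at 1091 and 1963 CPM. The resident-like state differed from the Lyz1 Retnla-like, monocyte-like and dividing-like states by more than the counting error in both libraries. Interferon-high-like macrophages of the control library had 0.72, with an interval that overlapped that of the resident-like state. The resident-like state was not uniform either. Its sub-cluster led by Ccl3 and Ccl4 had C1qa at 4157 and 4093 CPM and C1qb at 4088 and 3724 CPM. Both chains were counted in the same cells, so depth is shared between them, and the ratio is read across states, not as a ratio of molecules.

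**Figure D2:**
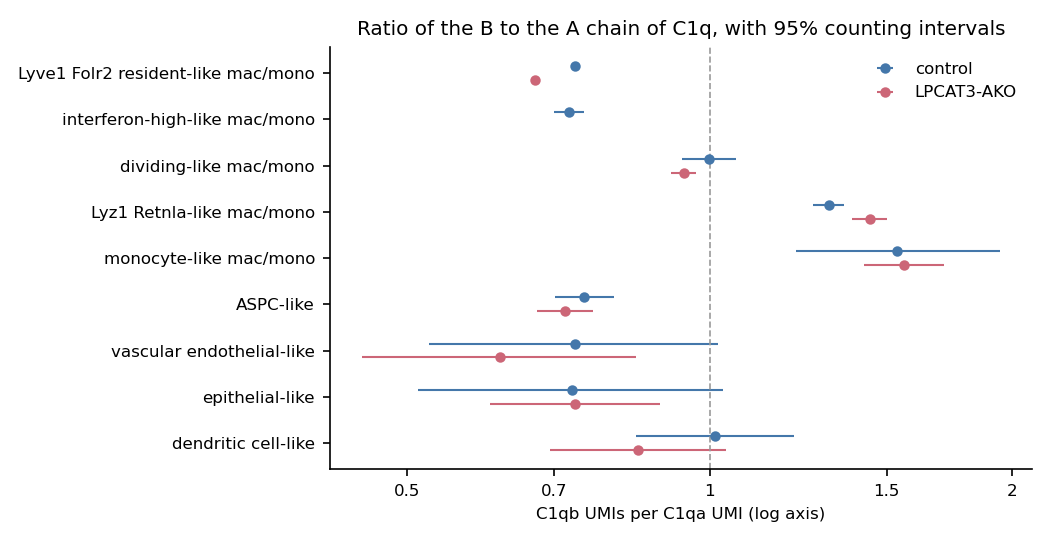
UMIs of C1qb per UMI of C1qa (horizontal log axis) in macrophage/monocyte-like states and in other classes, 1 point per library with its 95% counting interval and a dashed line at 1. Resident-like macrophages and ASPC-like cells lie near 0.7, whereas Lyz1 Retnla-like and monocyte-like cells lie between 1.3 and 1.6.

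Outside the macrophages, C1q was measured only at the level of macrophage markers. ASPC-like cells had C1qa at 38.7 and 42.8 CPM, C1qb at 29.0 and 30.8 CPM and C1qc at 25.6 and 27.4 CPM, between 0.971% and 1.20% of the macrophage/monocyte-like level. The 10 macrophage/monocyte markers, among them Csf1r and Adgre1, lay at 0.866% to 3.96% of their macrophage level in control ASPC-like cells and at 0.635% to 7.43% in LPCAT3-AKO ones. The ratio of C1qb to C1qa in ASPC-like cells was 0.75 (0.70 to 0.80) and 0.72 (0.67 to 0.76), close to the 0.76 and 0.73 of the whole macrophage/monocyte-like class. A UMI of any chain was seen in 17.5% of 5385 and 18.9% of 5555 thinned ASPC-like cells, and UMIs of all 3 chains in 3 and 4 cells. These cells held means of 0.080 and 0.099 C1qa UMIs, so all 3 chains in 1 cell would be rare whatever their source. Before thinning, 29.3% and 30.7% of ASPC-like cells had a UMI of C1qa. In epithelial-like and vascular endothelial-like cells the levels of the 3 chains lay between 17.9 and 39.3 CPM, and these too are at or below 1.01% of the macrophage level. Dendritic cell-like cells had C1qa at 73.2 and 70.4 CPM, or 1.87% and 1.81%, beside macrophage markers at a median of 9.98% and 11.4% of the macrophage level.

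C4b (ENSMUSG00000073418), which encodes the C4 protein that C1s cleaves, was present in both large classes. It stood at 462 CPM (455 to 470) and 411 CPM (404 to 418) in macrophage/monocyte-like cells and at 378 CPM (373 to 384) and 329 CPM (324 to 334) in ASPC-like cells. The near-identical paralog C4a had 52 and 38 UMIs in all kept cells against 34122 and 30667 of C4b, and reads shared by the 2 copies may have been dropped or assigned to either, so the division between them is uncertain. Among ASPC-like states, the Ccn5 Mfap4 Cxcl13-like cells (510 and 837 cells) had C4b at 744 and 637 CPM, followed in the control by F3-high-like cells (88 and 135 cells; 649.6 and 523 CPM) and interferon-high-like cells (408 and 101 cells; 534 and 606 CPM). In the LPCAT3-AKO library the interval of the interferon-high-like state (560 to 655) overlapped that of the Ccn5 Mfap4 Cxcl13-like state (621 to 654). Dpp4-high interstitial progenitor-like cells (3629 and 3060 cells) had 307 and 263 CPM, and Icam1-high committed preadipocyte-like cells (871 and 1469 cells) 324 and 234 CPM. The counting intervals of the Ccn5 Mfap4 Cxcl13-like and the Dpp4-high states did not overlap in either library.

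Among macrophages, C4b followed the resident-like state as C1q did. Resident-like macrophages had 604 and 578 CPM, Lyz1 Retnla-like macrophages 127 and 123 CPM, and monocyte-like cells 15.7 CPM (6.33 to 32.4) and 31.2 CPM (22.5 to 42.2). After thinning, 48.0% and 43.4% of macrophage/monocyte-like cells had UMIs of both C1qa and C4b, against 3.01% and 2.65% of ASPC-like cells. Within the resident-like state, sub-clusters differed in C4b: the one led by Fam118a and Timd4 (756 and 537 cells) had 748 and 708 CPM, and the one led by Ccl3 and Ccl4 (479 and 339 cells) had 353 and 272 CPM. The Ccl3 Ccl4 sub-cluster had C1qa at 4157 and 4093 CPM and C1qb at 4088 and 3724 CPM. Vascular endothelial-like, epithelial-like and dendritic cell-like cells had C4b between 13.6 and 20.5 CPM. In dendritic cell-like cells this was 5.42% and 4.24% of the ASPC-like level, above the ASPC markers there (up to 1.69% and 2.67%), and 4.43% and 3.39% of the macrophage level, within the macrophage markers. In epithelial-like cells it was 4.73% and 4.53% of the ASPC-like level, also above the ASPC markers (up to 2.07% and 3.50%), and within the macrophage markers at 3.87% and 3.62%. In vascular endothelial-like cells it lay within the ASPC markers.

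C3 (ENSMUSG00000024164), the central component, stood at 2686 CPM (2671 to 2700) and 2105 CPM (2093 to 2118) in ASPC-like cells. It was spread over most of these cells. In cells thinned to 2000 UMIs, the median held 5 and 4 C3 UMIs, and 86.7% and 77.0% of the cells had at least 1. The highest 10% of cells held 26.3% and 30.3% of the C3 UMIs. C3 and Serping1 were seen together in 79.1% (78.0 to 80.2) of 5385 and 71.4% (70.2 to 72.6) of 5555 such cells.

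Among the non-dividing states of ASPC-like cells, C3 was lowest in the Icam1-high state. Dpp4-high interstitial progenitor-like cells, the uncommitted progenitors marked by Dpp4 and Pi16, had 3079 and 2611 CPM. The Ccn5 Mfap4 Cxcl13-like state had 2924 and 2662 CPM, the interferon-high-like state 2763 and 2669 CPM, and the F3-high-like state 2309 and 1848 CPM. Icam1-high committed preadipocyte-like cells, which carry the adipocyte genes Pparg and Fabp4, had 819.6 and 716 CPM. After thinning, 95.8% and 92.5% of Dpp4-high cells but 40.5% and 34.9% of Icam1-high cells had a C3 UMI, and the median Icam1-high cell had 0. The 3 Dpp4-high sub-clusters, led by different genes, had C3 between 2446 and 3203 CPM. The dividing-like ASPC (80 and 112 cells, with medians of 2574 and 3742 UMIs) differed most between the libraries, at 2028 and 767 CPM, the latter (716 to 821) close to the Icam1-high level. Their marker sums differed too: the Icam1-high markers summed to 3195 and 6591 CPM, and the Dpp4-high markers to 3831 and 2349 CPM.

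C3 in the other classes was low. Macrophage/monocyte-like cells had 69.6 and 49.7 CPM, or 2.59% and 2.36% of the ASPC-like level, and the 10 ASPC markers lay there at 1.44% to 2.86% in the control and from 1.20%, with a median of 1.76%, in the LPCAT3-AKO library, so that C3 lay within their range in both. Vascular endothelial-like cells had 42.8 and 27.2 CPM and epithelial-like cells 27.9 and 39.5 CPM, within the range of the ASPC markers in each, and dendritic cell-like cells 50.02 and 38.9 CPM. The dendritic value was 1.86% of the ASPC-like level in the control, just above the ASPC markers there (1.03% to 1.69%), and 1.85% in the LPCAT3-AKO library, within them (1.32% to 2.67%). Monocyte-like cells stood further above. Their C3 was at 218 CPM (177 to 266) and 96.6 CPM (80.7 to 115), which is 8.12% and 4.59% of the ASPC-like level, while the 10 ASPC markers there lay at 1.30% to 4.42% and at 1.17% to 2.07%. These were 97 UMIs in 45 of 83 control cells and 130 UMIs in 88 of 213 LPCAT3-AKO cells, with at most 10 and 7 in 1 cell. Thinned to 2000 UMIs, 29.3% and 15.4% of monocyte-like cells had a C3 UMI, against 13.9% and 10.4% of the whole class. A shallow Lyz1 Retnla-like sub-cluster led by Gm26917 and Ear2 (191 and 177 cells, with medians of 2068 and 2562 UMIs) also stood above the class. It had C3 at 116 and 90.9 CPM, and its ASPC markers are not given here.

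Cfb (ENSMUSG00000090231), factor B, was divided between the same classes as C4b. Macrophage/monocyte-like cells had 179.9 CPM (175 to 185) and 213 CPM (208 to 219), and ASPC-like cells 131 CPM (128 to 134) and 133 CPM (130 to 136). In the control library interferon-high-like macrophages had 366 CPM, beside 226 CPM in resident-like ones. Among control ASPC, interferon-high-like cells had 201 CPM (188 to 215) and Ccn5 Mfap4 Cxcl13-like cells 181 CPM (170 to 192), intervals that overlap, and Dpp4-high cells 128 CPM. In the LPCAT3-AKO library these 2 states also overlapped, at 179.8 CPM (155 to 207) and 200.5 CPM (191 to 210). Icam1-high cells had 67.5 and 73.0 CPM. Lyz1 Retnla-like macrophages had 22.1 and 47.4 CPM and monocyte-like cells 47.2 and 189 CPM. C4b and Cfb were seen together in 15.5% and 16.9% of thinned macrophage/monocyte-like cells and in 10.8% and 10.2% of thinned ASPC-like cells. Vascular endothelial-like cells had 11.6 and 16.8 CPM, and epithelial-like cells 2.08 and 9.46 CPM. The vascular values were 6.45% and 7.88% of the macrophage level, above the macrophage markers there (up to 2.88% and 4.39%). They were 8.86% and 12.6% of the ASPC-like level. That is within the ASPC markers, whose range there was wide (1.23% to 32.7% and 0.970% to 29.8%), but above their medians of 2.73% and 2.59%. The epithelial-like cells lay partly in different sub-clusters. A sub-cluster of 22 LPCAT3-AKO cells, with Cfb at 72.3 CPM and among its leading genes, had no control counterpart. In 2 luminal-like sub-clusters with cells of both libraries, Cfb was at 1.74 and 8.15 CPM (led by Aoc1) and at 3.01 and 7.28 CPM (led by Ltf). All luminal-like cells together held 5 and 63 Cfb UMIs, so the control values of these sub-clusters lie near the counting floor. The part of the sub-clusters in the difference was not tested.

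The receptors were highest in macrophage/monocyte-like cells. C3ar1 (ENSMUSG00000040552), the C3a receptor, stood at 453 CPM (446 to 461) and 438 CPM (430 to 445), and C5ar1 (ENSMUSG00000049130), the C5a receptor, at 412 CPM (405 to 419) and 314 CPM (307 to 320). ASPC-like cells had 3.18 and 4.03 CPM of C3ar1 and 4.56 and 3.45 CPM of C5ar1, or 0.702% to 1.11% of the macrophage level, below or within the range of the macrophage markers given above. After thinning, 73.3% and 69.0% of macrophage/monocyte-like cells had a UMI of either receptor and 34.0% and 28.1% of both, against 1.71% and 1.51% of ASPC-like cells with either. Both receptors were highest in the interferon-high-like macrophages of the control library, at 846 and 726 CPM. Resident-like macrophages had C3ar1 at 563 and 597 CPM and C5ar1 at 510.5 and 429 CPM, and Lyz1 Retnla-like macrophages 93.3 and 106 CPM, and 96.0 and 78.7 CPM. Monocyte-like cells had C3ar1 at 98.9 and 308 CPM, and C5ar1 at 106 and 151 CPM. Cells with the C3a receptor and cells with most of the C3 belonged to different classes in both libraries.

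Serping1 (ENSMUSG00000023224), the inhibitor, was present in nearly every ASPC-like cell, at 1491 CPM (1481 to 1502) and 1622 CPM (1611 to 1633). It had a UMI in 96.9% and 97.2% of these cells, and in 88.9% and 88.5% after thinning. F3-high-like cells had the most, at 2324 and 2467 CPM, and the Ccn5 Mfap4 Cxcl13-like state followed at 2096 and 2375 CPM. In the LPCAT3-AKO library the intervals of these 2 states overlapped. Dpp4-high cells had 1526 and 1699 CPM and Icam1-high cells 897 and 932 CPM. Between the Dpp4-high and the Icam1-high state, Serping1 differed less than C3. Macrophage/monocyte-like cells had 18.9 and 19.0 CPM, or 1.27% and 1.17% of the ASPC-like level, below the lowest of the ASPC markers there (1.44% and 1.20%).

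Serping1 was also measured in vessel cells. Mural-like cells, which wrap the vessels (20 and 34 cells), had 675 CPM (526 to 852) and 598 CPM (485 to 730), beside 10 ASPC markers that summed to 10901 and 12019 CPM there. Vascular endothelial-like cells had 190.1 and 204 CPM. Clusters that also showed 72.7% or more of the mural markers made up 120 of the 221 control and 150 of the 260 LPCAT3-AKO endothelial cells, and Serping1 lay in these, at 249 CPM (227 to 273) and 264 CPM (243 to 287). The other endothelial cells had 23.0 CPM (12.9 to 37.9) and 26.9 CPM (16.2 to 42.0). Mural markers summed to 3631 and 4423 CPM in the first and to 761 and 737 CPM in the second. The ASPC markers moved in the same way, at 1784 and 1866 CPM against 617 and 654 CPM, and the part of either in the Serping1 level was not tested. The other 8 genes differed less between the 2 kinds of endothelial cluster, and none reached 60 CPM in either. In the LPCAT3-AKO library C1qb was at 18.7 CPM (13.3 to 25.5) in the first and 41.0 CPM (27.5 to 58.9) in the second, intervals that did not overlap. In the control its intervals overlapped, at 21.7 CPM (15.5 to 29.5) and 39.8 CPM (26.0 to 58.4). Cfb was lower where the mural and ASPC markers were higher, at 8.13 and 13.4 CPM against 21.4 and 26.9 CPM, with counting intervals that overlapped.

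**Figure D3:**
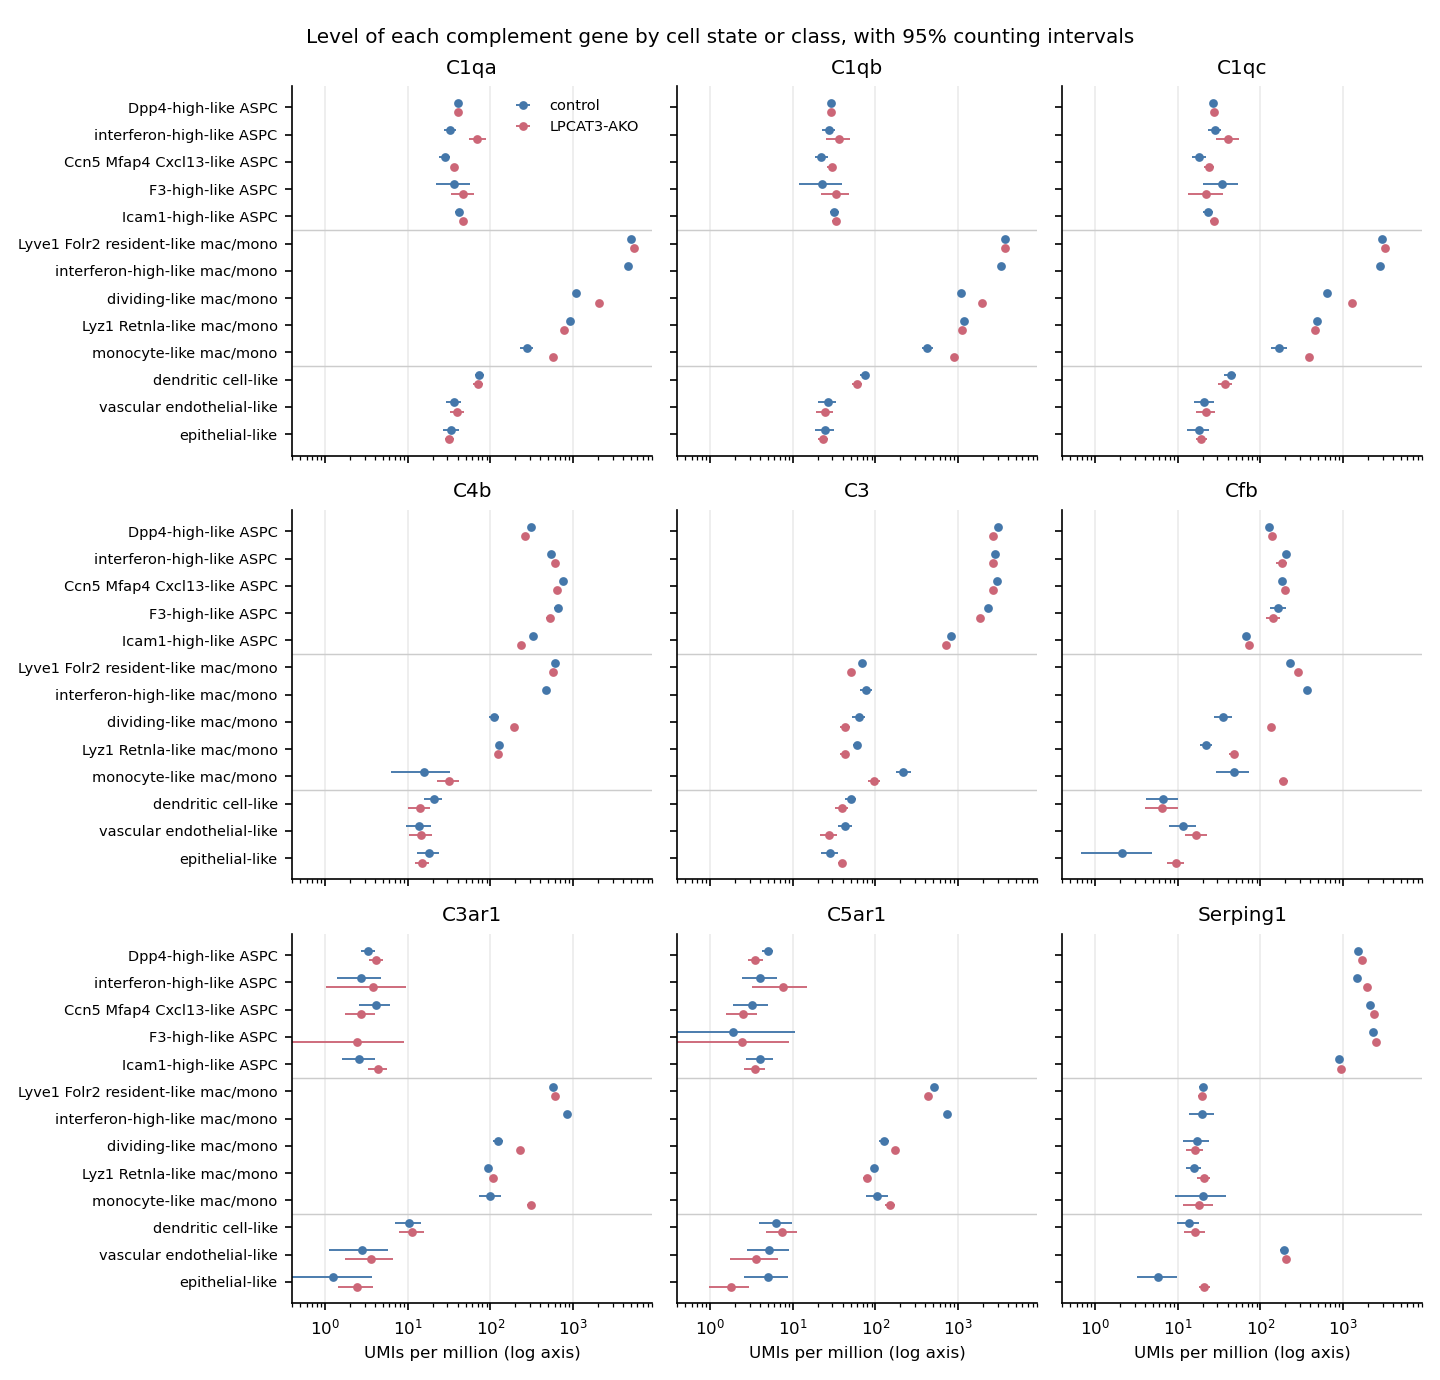
Level of each of the 9 genes (horizontal log axis, CPM) by ASPC-like state, macrophage/monocyte-like state and other class (vertical axis), 1 point per library with its 95% counting interval. The C1q chains, C3ar1 and C5ar1 stand high in the middle block of macrophages, C3 and Serping1 in the upper block of ASPC, and C4b and Cfb in both. States with under 20 cells in a library and a level of 0 UMIs (C3ar1 in control F3-high-like cells) have no point, and dividing-like ASPC are not drawn.

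Since no test was possible between the libraries, a difference had to reach a fixed size to be singled out. A gene was open to this size rule where either library had 20 CPM, and it passed if 1 library was at least 1.5 times the other and the counting interval of the ratio left out 1. In the 2 large classes no complement gene passed. In ASPC-like cells 0 of the 7 open genes passed, where 2.19% of all 6063 open genes did, and their median log2 ratio was 0.08 against 0.00 over all open genes. In macrophage/monocyte-like cells 0 of 8 passed, where 1.9% of all 5963 open genes did, with medians of -0.07 and 0.04. In macrophage/monocyte-like cells the log2 ratios of LPCAT3-AKO over control were -0.01 for C1qa, -0.08 for C1qb and -0.01 for C1qc. In the whole fraction the ratios of the chains were 0.921, 0.876 and 0.918. Macrophage/monocyte-like cells made up 38.8% (37.9 to 39.7) and 32.1% (31.2 to 33.0) of the kept cells. At this depth the differences below 1.5 were often larger than the counting error, but how much 2 libraries of 1 genotype differ is unknown.

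C3 in ASPC-like cells had a ratio of LPCAT3-AKO over control of 0.784 (0.778 to 0.790). The ratio was below 1 in each of the 5 ASPC-like states of non-dividing cells, at 0.848 in Dpp4-high, 0.910 in Ccn5 Mfap4 Cxcl13-like, 0.966 (0.927 to 1.006) in interferon-high-like, 0.801 (0.742 to 0.864) in F3-high-like and 0.874 in Icam1-high cells. The mix of states also differed. The low-C3 Icam1-high state made up 15.6% (14.7 to 16.6) and 25.7% (24.6 to 26.9) of ASPC-like cells, and the Dpp4-high state 65.0% and 53.6%. With the states given the same weight in both libraries, the C3 levels were 2547 and 2182 CPM, and the log2 ratio went from -0.35 to -0.22. Serping1 was 1.09 times as high in the LPCAT3-AKO library over all ASPC-like cells, and C4b 0.869 times. In macrophage/monocyte-like cells C5ar1 had a ratio of 0.761 (0.741 to 0.782). Its states did not share that direction, with 0.841 (0.817 to 0.866) in resident-like, 0.820 (0.721 to 0.931) in Lyz1 Retnla-like, 1.35 (1.17 to 1.57) in dividing-like and 1.43 (1.04 to 2.01) in monocyte-like cells, and the interferon-high-like state, where C5ar1 was highest in the control, had 228 and 11 cells. With the states given the same weight, the log2 ratio of C5ar1 went from -0.39 to -0.22. Over the whole class Cfb had a ratio of 1.19 (1.14 to 1.23) and C4b of 0.889 (0.868 to 0.911).

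Within the large states the picture was the same. None of the 7 open genes passed in the Dpp4-high (1.32% of all open genes passed), Ccn5 Mfap4 Cxcl13-like (2.61%) or Icam1-high state (1.66%), and none of 8 in resident-like macrophages (0.839%). In interferon-high-like ASPC, 1 of 7 passed: C1qa was higher in the LPCAT3-AKO library, at 69.7 against 32.8 CPM. There 17.5% of all open genes passed, and 101 LPCAT3-AKO cells with 74 UMIs of C1qa carried the value. Summed macrophage markers in this state were 148 and 204 CPM, and their part in the result was not tested.

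The smaller macrophage states differed more. In Lyz1 Retnla-like macrophages 1 of 9 open genes passed, beside 2.15% of all open genes. This was Cfb, at 22.1 and 47.4 CPM, a ratio of 2.15 (1.73 to 2.67), which held in each of the 3 alternatives computed for it. In dividing-like macrophages 6 of 8 open genes passed, all higher in the LPCAT3-AKO library, where 11.6% of all open genes passed. C1qa stood at 1093 and 2084 CPM there, C1qb at 1091 and 1963 CPM, C1qc at 641 and 1277 CPM, C4b at 109.7 and 194 CPM, Cfb at 35.6 and 135 CPM, and C3ar1 at 123 and 228 CPM. C4b no longer passed with cells weighted alike or thinned, and the other 5 did. The 8 markers of the resident-like state, Lyve1, Folr2 and Timd4 among them, summed to 2592 and 4479 CPM in these cells, the same direction as C1q, and all 10 macrophage markers to 8797 and 9352 CPM. Their part in the result was not tested.

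Monocyte-like cells numbered 83 in the control, under the 100 at which the rule was applied. Their ratios were 2.08 (1.72 to 2.53) for C1qa, 2.11 (1.81 to 2.47) for C1qb, 2.31 (1.81 to 2.98) for C1qc and 3.12 (2.28 to 4.36) for C3ar1, and 0.443 (0.338 to 0.582) for C3. Cfb, at 47.2 and 189 CPM, had a log2 ratio of 1.98. Interferon-high markers summed to 1032 and 2264 CPM in these cells, and resident-like markers to 1322 and 1375 CPM. Cfb was higher in the LPCAT3-AKO library in each of the 4 macrophage states measured in both, with log2 ratios of 0.32 in resident-like, 1.07 in Lyz1 Retnla-like, 1.89 in dividing-like and 1.98 in monocyte-like cells, of which the first was below the size rule and the last outside it.

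**Figure D4:**
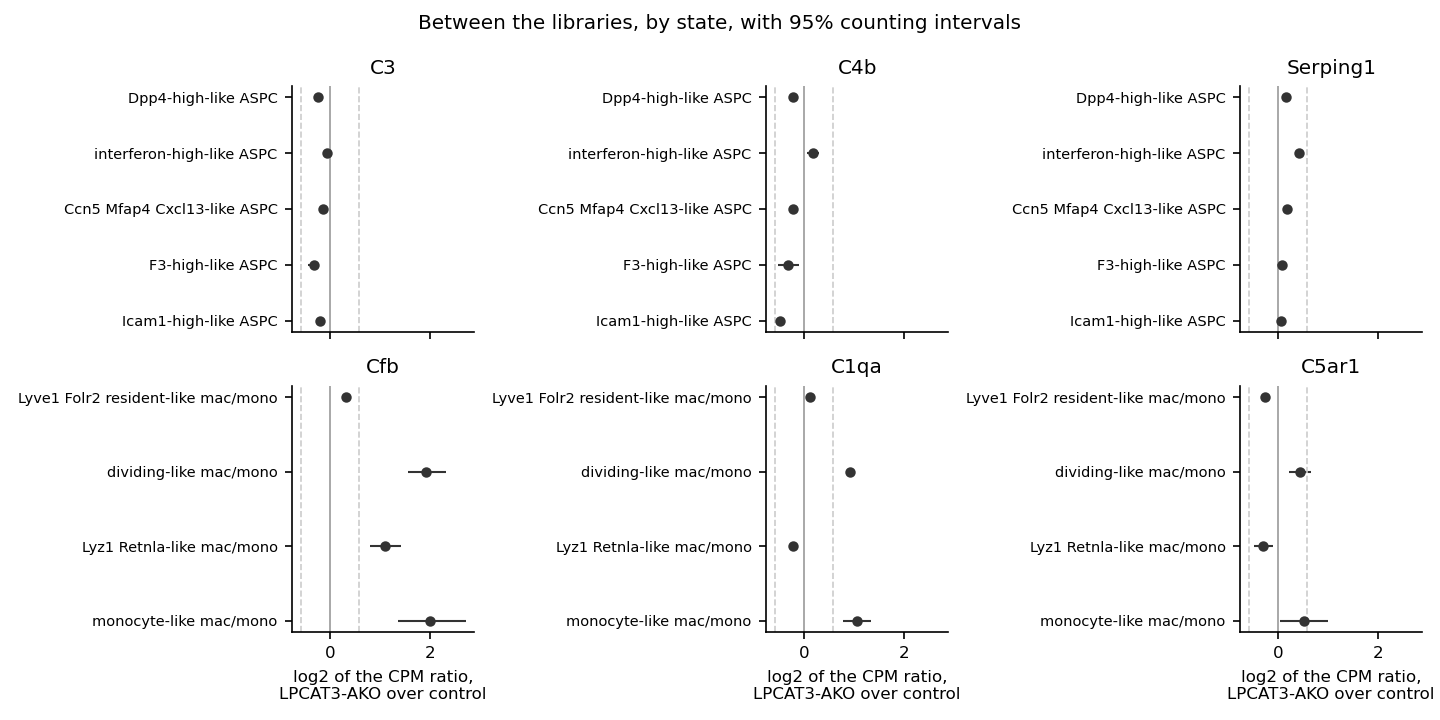
log2 of the CPM ratio of the LPCAT3-AKO over the control library (horizontal axis) for C3, C4b and Serping1 by non-dividing ASPC-like state and for Cfb, C1qa and C5ar1 by macrophage/monocyte-like state, with 95% counting intervals and dashed lines at a ratio of 1.5 either way. The non-dividing ASPC points lie inside the dashed lines, and the Cfb points lie to the right of 0, the 3 smaller states beyond the line.

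In the small classes most of the genes past the rule lay beside differences in markers of other cells. In vascular endothelial-like cells 1 of 5 open genes passed, beside 2.88% of all open genes: C3 was lower in the LPCAT3-AKO library, at 42.8 and 27.2 CPM with a ratio of 0.635 (0.467 to 0.860). Summed markers in this class were 1479.5 and 1559.6 CPM for ASPC, 2881 and 3491 CPM for mural and 194 and 544 CPM for erythroid cells, and their part in the result was not tested. Without the clusters that showed mural markers the levels were 47.5 and 34.0 CPM and no longer passed. In dendritic cell-like cells 0 of 5 passed, beside 3.64%. In epithelial-like cells, marked by Epcam and keratins, 1 of 4 passed, beside 16.2%: Serping1 was higher in the LPCAT3-AKO library, at 5.83 and 20.9 CPM. ASPC markers summed to 419 and 778 CPM in these cells, and without cells that held 5 or more of the 10 markers of ASPC or of macrophages the Serping1 levels were 8.54 and 7.33 CPM. In luminal-like epithelial cells 3 of 4 passed, beside 13.7%: C3 (26.3 and 47.4 CPM) and Serping1 (6.13 and 23.1 CPM) were higher and C1qa (33.7 and 22.1 CPM) lower. Without the marker-holding cells, fewer than 100 control luminal-like cells remained, so the rule could not be applied to these 3. The luminal-like cells also lay in different sub-clusters: 1 held 4 and 46 cells, another 0 and 38, and a further one 0 and 22. In the 2 shared sub-clusters, C3 was at 25.2 and 23.1 CPM (67 and 45 cells) and at 28.1 and 68.6 CPM (32 and 54 cells).

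T cell-like and NK cell-like cells had 11 of the 13 class results and the least depth of the 7 classes, with medians of 3044 and 2934, and of 2686 and 3546 UMIs. In T cell-like cells (122 and 167) 6 of 8 passed, beside 11.9%. C3 (212 and 318 CPM), C4b (37.4 and 86.9 CPM) and Serping1 (106 and 268 CPM) were higher in the LPCAT3-AKO library, and C1qa (176 and 91.4 CPM), C1qb (162 and 68.9 CPM) and C1qc (120.4 and 36.0 CPM) were lower. The summed ASPC markers, 3962 and 5593 CPM, and the summed macrophage markers, 1202 and 414 CPM, differed in the same 2 directions. The direction was not stable for C3 and C1qb, each of which reversed under 5 of the alternatives, nor for C1qa and C1qc, which reversed under 2 and 1. In NK cell-like cells (124 and 107) 5 of 8 passed, beside 12.9%, all higher in the LPCAT3-AKO library: C1qa (93.9 and 157 CPM), C1qb (87.5 and 257 CPM), C1qc (55.5 and 119 CPM), C3ar1 (8.54 and 28.3 CPM) and Serping1 (19.2 and 45.5 CPM). Macrophage markers summed to 2245 and 3889 CPM and ASPC markers to 911 and 1537 CPM in them. Cells with 5 or more markers of ASPC or macrophages were then left out of all classes. They were 11.3% and 31.8% of NK cell-like, 31.5% and 50.6% of epithelial-like and 44.8% and 50% of vascular endothelial-like cells. Of the 13 class results 1 was left, C3 in vascular endothelial-like cells. Fewer than 100 LPCAT3-AKO NK cell-like and control epithelial-like cells remained, so the rule could not be applied to these classes. Their results were thus lost by cell number, whatever their ratios.

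Of the other 44 complement genes, 13 reached 100 CPM in a compared class and 24 stayed under 20 CPM in every one. Of the 13, 3 were highest in ASPC-like cells, 4 in macrophage/monocyte-like cells and the rest in other classes. The proteases that sit with C1q lay outside the macrophages: C1s1 stood at 537 and 547 CPM and C1ra at 249 and 234 CPM in ASPC-like cells, against 22.3 and 16.4 CPM, and 12.8 and 13.7 CPM, in macrophage/monocyte-like cells. C1s1 was also at 626 and 537 CPM in the few mural-like cells. Both have near-identical copies, C1s2 with 30 and 22 UMIs and C1rb with 31 and 48 UMIs in all kept cells, so their counts are uncertain in the same way as C4b. Cd55, a membrane inhibitor of the convertases, completed the 3 highest of the list in ASPC-like cells, at 422 and 379.6 CPM. In macrophage/monocyte-like cells Cfp (properdin, which stabilises the alternative convertase) stood at 744.5 and 865 CPM, and Fcna (ficolin A of the lectin pathway) at 538 and 554 CPM. Itgam, a chain of complement receptor 3, had 447 and 487 CPM there. C2, which C1s cleaves beside C4, stood at 51.6 and 50.9 CPM in ASPC-like cells.

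Several regulators and receptors of the list lay outside the 2 large classes. Cd93 stood at 986.5 and 1044 CPM in vascular endothelial-like cells, and Cr1l, a membrane regulator, at 130.1 and 128 CPM. Clu (clusterin) had 321 and 392 CPM in epithelial-like and 242 and 230.3 CPM in vascular endothelial-like cells. C1qbp, a mitochondrial protein named for its binding to C1q, had 115 and 142 CPM in epithelial-like cells. Itgb2 (294.5 and 273 CPM) and Itgax (111 CPM in both) were highest in NK cell-like cells. Of the terminal components, C6 had 74.3 and 73.5 CPM in macrophage/monocyte-like cells, and Hc, which encodes C5, had 9.89 and 15.7 CPM in ASPC-like cells, and the other genes of this group stayed under 5 CPM in the 7 classes. Cfd, the product of mature adipocytes, reached at most 44.4 CPM in these classes, in control vascular endothelial-like cells. Between the libraries, 0 of the 8 open genes of the list passed the size rule in ASPC-like cells, where 2.19% of all open genes did, and 0 of 13 in macrophage/monocyte-like cells, where 1.9% did, so that 0 is near the background. Clu was lower in LPCAT3-AKO dendritic cell-like cells (23.5 and 9.08 CPM), where 3.64% of all open genes passed. Cfp was higher in NK cell-like cells (179 and 391 CPM), where 12.9% of all open genes passed and macrophage markers summed to 2245 and 3889 CPM. In T cell-like cells, where 11.9% passed, Cd55 was higher (51.9 and 109 CPM) and Itgb2 lower. There ASPC markers summed to 3962 and 5593 CPM and macrophage markers to 1202 and 414 CPM. The part of these markers in the NK cell-like and T cell-like results was not tested.

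The genes with the most similar pattern were named by Pearson's correlation of log2(CPM + 1) over 16 classes and states in both libraries, 32 points that share libraries and depth, among 7411 genes at 50 CPM or more. The 9 genes themselves were left out of this ranking. The most similar were Pf4, F13a1 and Csf1r for C1qa and C1qc (r from 0.94 to 0.96) and F13a1, Csf1r and Gnpda1 for C1qb (0.95 to 0.98). They were Csf1r, Adgre1 and F13a1 for C3ar1 (0.94 to 0.96), and F13a1, Csf1r and Tlr7 for C5ar1 (0.94 to 0.97). For C3 they were Igfbp6, Clec3b and Gpc3 (0.97), and for Serping1 Eln, Fxyd1 and Fbln2 (0.99). C4b was nearest to Timp2, Igf1 and Steap3 (0.90 to 0.93), and Cfb to Ifi204, Lgals3bp and Abca1 (0.88 to 0.90). Pf4, Csf1r and Adgre1 were markers used to name the macrophage/monocyte-like class, and F13a1 the resident-like state, so their likeness is partly built in. Among the 9 genes themselves, C1qa correlated at 0.99 with C1qc, at 0.98 with C1qb and at 0.97 with C5ar1, all above Pf4. C4b and Cfb correlated at 0.86 with each other, at 0.71 and 0.66 with C3, and at 0.12 and 0.25 with C1qa. These values describe the pattern over cell types and carry no test.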

How the data were processed

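Each deposited matrix holds UMI counts by gene and cell barcode as whole numbers, not normalized, per the file headers. Cell Ranger 6.1.2, Seurat 4.10 and the mm10 build are named in the submitters' processing notes, while the annotation release was not given in the sources. The 9 genes, the gene lists and the markers were chosen with earlier results of these data known, and how clusters were named was settled with the data in view.

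Barcodes with 500 or more genes and at most 10% mitochondrial UMIs were kept. Likely doublets were removed by Scrublet score, library by library (0.8% per 1000 cells; 1235 control and 1088 LPCAT3-AKO cells). Cells of both libraries were clustered together with scanpy 1.11.5 on Python 3.11.15 (2000 variable genes without the complement genes, 30 principal components, 15 neighbours, Leiden resolution 1.0 and 0.5 for states). No deposited cell annotation was used here. A cluster was named for the class whose markers it showed most fully, with at least 3 shown, and a state needed 60% of its markers; 98 control and 130 LPCAT3-AKO cells were left out, unnamed or with genes of another class.

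UMIs were summed per class, state and library. Intervals are exact Poisson (CPM), exact Clopper-Pearson (shares) and exact binomial (ratios) at 95%, and cover counting error only. log2 ratios use CPM + 1. The size rule was applied to groups with 100 or more cells in both libraries. Named were the 9 genes, the 3 highest other complement genes of each large class, those of the list at 100 CPM in a class or past the rule, and, for each of the 9, the 3 most alike genes outside the 9. C2, C6, Hc and Cfd were named after their values were seen. A result that the naming rule covers is not reported here. Alternatives changed the filters, the doublet step, the clustering, the gate, the weighting, the thinning and the rule. Member sequences were not used here.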

Additional observations from a re-analysis of the deposited data

How the results depend on the processing

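The division of the 9 genes between the classes, 7 highest in macrophage/monocyte-like and 2 in ASPC-like cells in each library, was the same in each of the 9 alternatives that regroup or reweight cells. The number of class results past the size rule was not: 13 became 4 with at least 1000 genes per cell, 4 with at most 5% mitochondrial UMIs, 5 without doublet removal, 2 at Leiden resolution 0.5, 4 with complement genes in the clustering, 4 with cells gated one by one, 7 as a mean over cells, 4 with thinned cells and 1 without cells that hold markers of another class, the last chosen after seeing the data. It stayed within 1.5 times with equal state weights (13), a lower ratio in the rule (18), 5 CPM (14) and without mural-marked endothelial clusters (12, also chosen after seeing the data). These counts can include results outside the 13. With cells gated one by one, the 4 were C1qa and C1qb in dendritic cell-like cells, and C1qb and Serping1 in T cell-like cells. Only Serping1 was among the 13 in the same direction. That gate kept 164 NK cell-like cells over both libraries, too few for the 100 in each that the rule needs. Without cells that hold markers of another class, NK cell-like and epithelial-like cells were also too few. The log2 ratios of a gene in a class or state, 45 or 56 under each alternative, were set beside the main ones. Of these 573 comparisons, which repeat the same ratios, 413 stayed, 139 moved and 21 reversed. Those that stayed ranged from 44 of 45 with 10 CPM added instead of 1 to 19 of 45 with cells gated one by one.

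The reversals lay in T cell-like, NK cell-like and epithelial-like cells. In T cell-like cells, C3 went to -0.62 without doublet removal, -0.53 at resolution 0.5, -0.54 gated, -0.0320 as a mean and -0.59 without marker-bearing cells. C1qb there went to 0.12 (1000 genes), 0.52 (no doublet removal), 0.33 (resolution 0.5), 0.18 (complement genes in clustering) and 0.82 (gated, past the rule the other way), C1qa to 0.0028 (resolution 0.5) and 0.31 (gated), and C1qc to 0.0704 (gated). In NK cell-like cells, C3ar1 went to -0.11 (1000 genes), -0.36 (gated) and -0.57 (no marker-bearing cells), Serping1 to -1.48 (5% mitochondrial) and C1qc to -0.0922 (no marker-bearing cells). Without marker-bearing cells Serping1 went to -0.20 in epithelial-like and -0.17 in luminal-like epithelial cells, and C1qa in the latter to 0.0526 as a mean. The cause was not tested.

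No paired analysis was possible because each group has 1 library, so replicates cannot be left out in turn. Of the 7 compared classes, T cell-like and NK cell-like cells had the lowest median UMIs.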

Other observations

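In the dividing-like macrophages, genes of the wider complement list were also past the size rule, which 11.6% of all open genes passed there. Fcna, the ficolin A of the lectin pathway, stood at 58.1 and 215 CPM in the control and LPCAT3-AKO cells, Colec12 (a scavenger receptor collectin) at 2.74 and 21.9 CPM, and C5ar2, the other C5a receptor, at 12.6 and 27.6 CPM. These were higher in the LPCAT3-AKO library, as the C1q chains were. The Colec12 value rested on 5 control UMIs, with a ratio of 7.97 (3.31 to 25.1). Itgax, a chain of complement receptor 4, was lower, at 42.2 and 21.6 CPM. In Lyz1 Retnla-like macrophages 1 of 8 open genes of the list was past the rule, beside 2.15% of all open genes: Itgax again, at 67.6 and 38.2 CPM with a ratio of 0.565 (0.475 to 0.670). The resident-like markers whose sums differed in the dividing-like cells are given in the report, and their part in these values was not tested.

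Schwann-like cells (22 control and 20 LPCAT3-AKO cells), too few for the size rule, had C4b at 569 CPM (409 to 772) and 241 CPM (147 to 372), from 41 and 20 UMIs. In the same cells the 10 ASPC markers summed to 8872 and 18618 CPM and the 10 macrophage/monocyte markers to 1624 and 916 CPM, and the part of either in the C4b values was not tested.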
